A study of Mus musculus with 12 samples.

Results

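Keratin-associated protein genes, whose mouse symbols begin with Krtap, were followed in plucked skin of mice with and without the transcription factor Sox4. They were taken by RefSeq accession from the probes of a one-colour Agilent array, and for each gene the probe with the highest mean level was used if at least 3 arrays showed it well above background. Of 56 Krtap genes in the RefSeq table, 51 had a matched probe and 50 were tested, among 16181 genes in all. All 50 were above background on all 12 arrays and none was saturated, so the filter removed only Krtap13, whose probe was above background on 0 arrays. Krtap4-13, Krtap6-3, Krtap27-1, Krtap28-13 and Krtap29-1 had no probe matched by accession and were not analysed here. The 50 genes fall into 24 subfamilies by the number after Krtap. Of these, 14 held 1 tested gene, 3 held 2, and 7 held at least 3 (Krtap1, Krtap3, Krtap4, Krtap5, Krtap6, Krtap9 and Krtap19). They lie on chromosome 7 (5 genes, all Krtap5), chromosome 10 (3 genes, Krtap10 and Krtap12), chromosome 11 (21 genes) and chromosome 16 (21 genes).

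Skin was taken 12 days after hair had been plucked, from 12 male mice of mixed C57Bl6/129Sv descent (75:25), with 1 array per mouse, to ask what Sox4 contributes to hair regrowth. Exp 1 held 3 wild-type mice (WT 1, WT 2 and WT 3) aged 69 to 72 weeks and 3 mice with a conditional Sox4 knockout in skin (cKO 2, cKO 5 and cKO 6) aged 68 to 72 weeks. Exp 2 held 3 WT mice (WT 4, WT 5 and WT 6) aged 18 to 20 weeks and 3 cKO mice (cKO 1, cKO 3 and cKO 4) aged 16 to 18 weeks. Age and experiment therefore cannot be told apart in any comparison of Exp 1 with Exp 2. The labels name the knockout without its driver. Sox4 itself lay between 1.90 and 2.43 in the 6 WT mice and between -4.26 and -2.55 in the 6 cKO mice, a difference of -5.54 ± 0.12 (SE; adjusted p = 3.75e-09), and the genotype labels separated all mice.

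Keratin-associated proteins are the matrix of the hair shaft: they fill the space between the keratin filaments of the cortex and cuticle and are joined to them by disulfide bonds. Their genes are switched on late, after the hair keratins, in cells that have left the proliferating matrix of a growing follicle. Krtap1, Krtap2 and Krtap3 encode high-sulfur proteins. Krtap4, Krtap5, Krtap9 and Krtap17 encode ultrahigh-sulfur proteins, and Krtap6, Krtap7, Krtap8, Krtap19, Krtap20, Krtap21 and Krtap22 encode proteins rich in glycine and tyrosine. Plucking starts a new growth phase of the follicle, the phase in which shaft genes are expressed.

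Promoter windows were compared because genes of a subfamily can be near copies of each other. RefSeq windows of 300 bases (250 before the start and 50 after, build GRCm38.p6) were matched for 45 of the 50 tested genes. The letters TATAAA, read on the sense strand only, occurred in 37 of the 45 windows (82.2%) against 8.32% of all 32851 windows. They began 20 to 40 bases before the start in 27 of 45 (60%) against 1.99% of all. A Lef1 and Tcf word (on either strand, CTTTGAA or one of its variants CTTTGAT, and likewise CTTTGTA, and finally CTTTGTT) occurred in 17 of 45 (37.8%) against 16.9%. A Hox group 13 word (TCGTAAA or CAATAAA on either strand) occurred in 1 of 45 (2.22%), that of Krtap11-1, against 5.15%. None of these words contains another, and a match is only a run of letters. Of the 8 windows without TATAAA, 4 belong to Krtap19, which has 6 windows. The exact word misses close variants: the windows of Krtap19-1, Krtap19-2 and Krtap15, printed in the next paragraph, hold tatataag. Only 2 of 990 pairs of windows were at least 90% identical: Krtap19-1 with Krtap19-2 (93%) and Krtap31-1 with Krtap31-2 (90.3%).

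The 250 bases before the start are shown 5′ to 3′ for both of these pairs, for Krtap11-1, which holds the single Hox group 13 word, and for Krtap15, the gene with the widest range over the 12 mice. Capitals mark TATAAA, Lef1 and Tcf words and the Hox group 13 word. The windows are Krtap19-1 (chr16:88869411-88869660, minus strand), Krtap19-2 (chr16:88874270-88874519, minus strand), Krtap31-1 (chr11:99907670-99907919, plus strand), Krtap31-2 (chr11:99936041-99936290, plus strand), Krtap11-1 (chr16:89571184-89571433, minus strand) and Krtap15 (chr16:88828759-88829008, plus strand).
Krtap19-1: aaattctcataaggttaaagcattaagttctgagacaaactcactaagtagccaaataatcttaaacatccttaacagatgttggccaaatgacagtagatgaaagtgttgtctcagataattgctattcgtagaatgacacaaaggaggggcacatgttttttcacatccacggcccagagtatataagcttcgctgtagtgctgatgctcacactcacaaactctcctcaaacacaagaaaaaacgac
Krtap19-2: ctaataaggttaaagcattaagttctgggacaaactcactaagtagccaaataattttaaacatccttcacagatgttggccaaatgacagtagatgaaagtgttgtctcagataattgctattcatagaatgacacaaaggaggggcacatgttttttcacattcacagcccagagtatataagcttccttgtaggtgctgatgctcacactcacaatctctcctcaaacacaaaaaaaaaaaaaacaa
Krtap31-1: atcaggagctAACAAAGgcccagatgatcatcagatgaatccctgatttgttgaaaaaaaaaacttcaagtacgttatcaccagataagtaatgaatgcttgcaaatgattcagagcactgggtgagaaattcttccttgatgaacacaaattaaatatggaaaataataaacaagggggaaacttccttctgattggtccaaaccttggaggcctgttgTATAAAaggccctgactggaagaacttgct
Krtap31-2: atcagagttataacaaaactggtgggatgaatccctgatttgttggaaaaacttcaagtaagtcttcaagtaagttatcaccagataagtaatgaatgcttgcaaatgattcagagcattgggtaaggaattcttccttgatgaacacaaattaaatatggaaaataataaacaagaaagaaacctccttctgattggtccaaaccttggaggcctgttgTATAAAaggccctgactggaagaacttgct
Krtap11-1: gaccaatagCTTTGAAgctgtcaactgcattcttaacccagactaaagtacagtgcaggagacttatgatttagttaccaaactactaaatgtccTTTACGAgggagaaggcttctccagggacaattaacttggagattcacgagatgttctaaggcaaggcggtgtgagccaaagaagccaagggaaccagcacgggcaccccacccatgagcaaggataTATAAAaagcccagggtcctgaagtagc
Krtap15: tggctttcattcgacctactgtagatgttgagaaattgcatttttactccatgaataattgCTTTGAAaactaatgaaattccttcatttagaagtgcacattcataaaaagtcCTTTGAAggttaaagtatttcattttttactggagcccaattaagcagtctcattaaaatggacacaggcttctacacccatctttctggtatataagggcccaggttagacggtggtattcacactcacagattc

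Of the array's 55681 probes, 53.9 to 62.6% were well above background per array, and signals at the 75th percentile ran from 364 to 554. All 13 tested hair shaft keratins and all 14 inner root sheath genes were above background on all 12 arrays, and hair follicle RNA was thus present in every sample. The arrays lay on 3 slides, with 6 arrays on slide 1 (WT 2, WT 3, WT 5, cKO 1, cKO 2 and cKO 6), 5 on slide 2 (WT 1, WT 4, WT 6, cKO 4 and cKO 5) and 1 on slide 3 (cKO 3). Skeletal muscle markers moved with experiment: the mean of 12 genes, relative to Exp 2, lay at -8.30 to -3.51 in the 6 Exp 1 mice, at -5.11 in WT 5 and at 0.48 to 1.68 in the other Exp 2 mice. Of these 12 genes 5 were above background on all arrays. Among cKO mice 10 were lower in Exp 1 than in Exp 2 at an adjusted p under 0.05 (4.6% of all genes). Between genotypes all 12 were higher in cKO than in WT averaged over both experiments, with a median of 2.51 and 0 under that threshold. The part of muscle in any Krtap result was not tested.

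In Exp 2 the Krtap genes were steady from mouse to mouse. Levels below are log2 processed signals relative to the array's own 75th percentile, so they are compared between mice for the same gene and not between genes. The median SD over the 50 genes was 0.18 in the 3 WT mice and 0.21 in the 3 cKO mice of Exp 2, against 0.18 and 0.17 over all genes. In Exp 1 it was 0.86 in WT and 1.15 in cKO, against 0.19 and 0.27 over all genes. The SD was larger in Exp 1 than in Exp 2 for 50 of 50 Krtap genes in WT and for 48 of 50 in cKO; over all genes this held for 53.7% and 70.8%. The mean of the 50 genes, set to 0 over the 6 Exp 2 mice, ranged only from -0.17 (WT 5) to 0.27 (cKO 4) in Exp 2. In Exp 1 it was -1.39 in WT 1, -2.49 in WT 2 and -0.84 in WT 3, and -1.66 in cKO 2, -3.09 in cKO 5 and -0.82 in cKO 6. Every Exp 1 mouse was thus below every Exp 2 mouse, and each genotype of Exp 1 held a high, a middle and a low mouse.

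**Figure D1:**
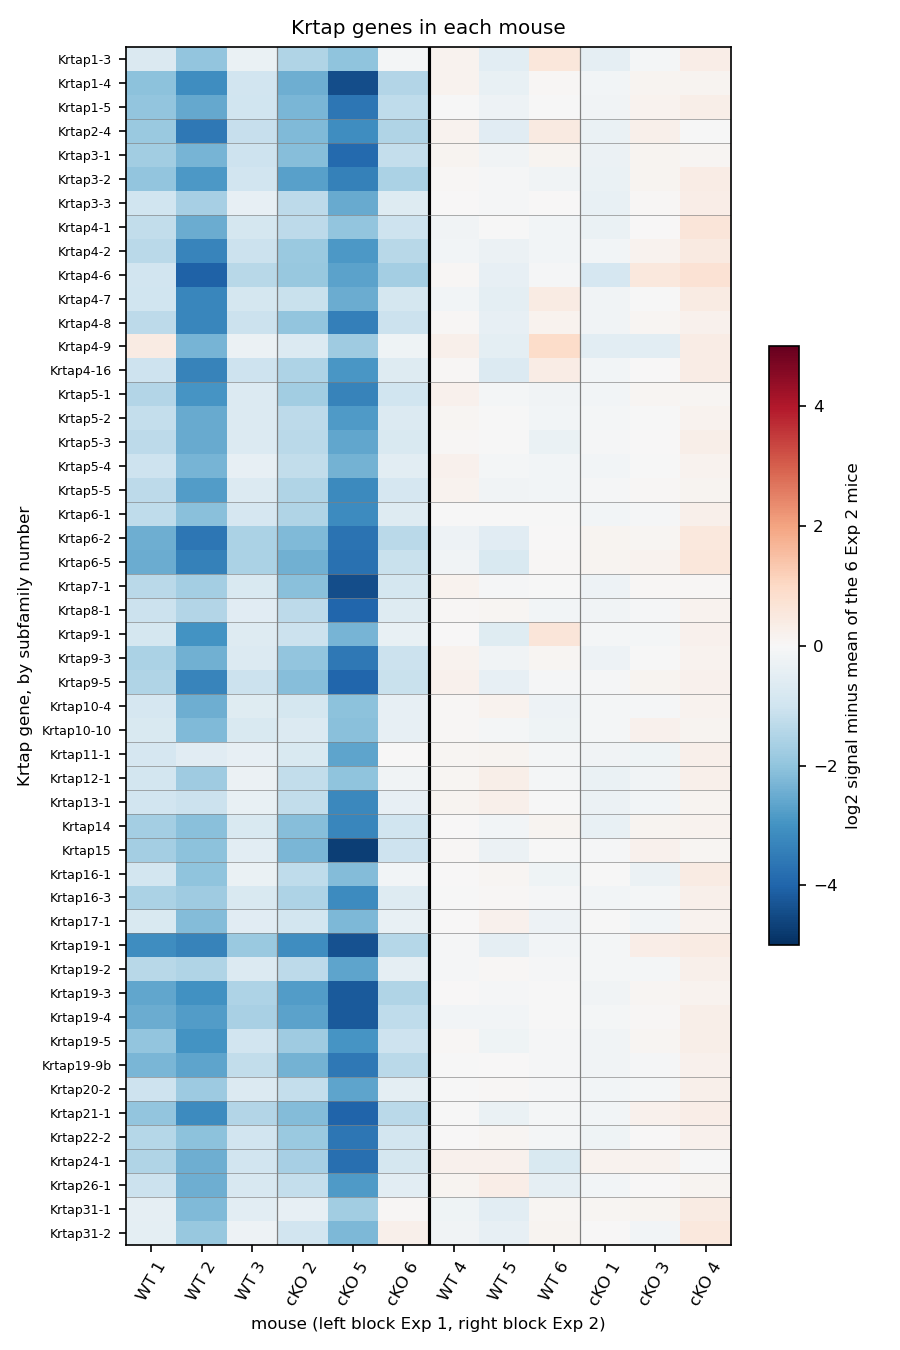
Levels of the 50 tested Krtap genes (rows, by subfamily number) in 12 mice (columns), as log2 signal minus the gene's mean over the 6 Exp 2 mice. The 6 Exp 1 columns at the left are mostly blue (lower), palest in WT 3 and cKO 6 and darkest in WT 2 and cKO 5, while the 6 Exp 2 columns stay near 0.

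The first comparison was of Exp 1 (older mice) with Exp 2 (younger mice) within each genotype. Up to the second comparison, a gene said to have fallen or risen in cKO passed the Exp 1 against Exp 2 test among cKO mice. Such wording does not compare cKO with WT. The Exp 1 minus Exp 2 difference was negative for all 50 Krtap genes in both genotypes. In cKO mice 20 of 50 passed the test and fell in Exp 1, against 4.6% of all genes called lower (9.98% called in either direction). In WT mice 0 of 50 passed, against 0.47% of all genes called lower (0.84% in either direction), although 40 of 50 had an unadjusted p under 0.05 with a negative difference (9.55% of all genes). The same count in cKO was 44 of 50 (12.4% of all genes). The median difference of the 50 genes was -1.49 in WT and -1.92 in cKO, that is 2.80-fold and 3.78-fold lower in Exp 1. Whole skin was measured, so fewer hair-forming cells and less RNA per cell cannot be told apart. Tests are limma's moderated tests over 4 groups of 3 mice, with p adjusted by Benjamini-Hochberg over all 16181 genes and a threshold of 0.05. The 4 groups share a common estimate of spread, although the Exp 1 groups varied more than the Exp 2 groups. All WT adjusted p lay between 0.075 and 0.55.

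The groups separated for most Krtap genes. All 3 Exp 1 mice lay below all 3 Exp 2 mice for 46 of 50 genes in WT (13.4% of all genes) and for 44 of 50 in cKO (13.8%), and all 6 below all 6 for 41 of 50 (4.56%). The count of 20 called genes changed when slide was modelled and when single mice were left out. Slide and mouse cannot be told apart here, since slide 3 held cKO 3 alone and each slide held different mice. With slide as a block 0 of 50 were called in cKO, while the median stayed at -1.93. Within slide 1 (cKO 2 and cKO 6 against cKO 1) the cKO median was -0.98 with 0 called, and within slide 2 (cKO 5 against cKO 4) it was -3.35 with 50 called, where the spread came from WT 4 and WT 6 alone. The call count was 0 without cKO 3 or cKO 4, 4 without cKO 1, 8 without cKO 2 or cKO 5, 12 without WT 4, 13 without WT 1 or WT 6, and 41 without cKO 6. In WT it was 15 without cKO 5, 4 without cKO 6 and 0 without any other single mouse. Without WT 2 and cKO 5 together, an alternative added after the data were seen, the medians were -1.02 in WT and -1.25 in cKO with 0 and 27 genes called.

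Among the glycine- and tyrosine-rich genes, the 6 of Krtap19 had a median of -2.13 in WT and -2.61 in cKO, and 5 of 6 fell in cKO. Krtap19-1 was at 2.66, 2.43 and 3.89 in WT 1, WT 2 and WT 3, and at 2.64, 1.40 and 4.32 in cKO 2, cKO 5 and cKO 6. In Exp 2 it was at 5.71, 5.30 and 5.63 in WT 4, WT 5 and WT 6, and at 5.68, 6.09 and 6.15 in cKO 1, cKO 3 and cKO 4. The 6 Exp 1 values lay below the 6 Exp 2 values without overlap, and cKO 5 was lowest. Krtap19-1 differed by -2.55 ± 0.62 (SE) in WT, 5.87-fold, adjusted p = 0.075, and fell by 3.19 ± 0.62 in cKO, 9.11-fold, adjusted p = 0.019. These are the widest differences of the 50 genes in either genotype.

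The promoter windows of Krtap19-1 and Krtap19-2 printed above are alike, and the values of the 2 genes are set side by side here; the difference between them was not tested. Krtap19-2 was at 8.61, 8.49 and 9.33 in WT 1, WT 2 and WT 3 and at 8.69, 7.36 and 9.55 in cKO 2, cKO 5 and cKO 6, against 9.95, 10.07 and 9.94 in WT 4, WT 5 and WT 6 and 9.90, 9.89 and 10.25 in cKO 1, cKO 3 and cKO 4. The experiments again did not overlap, and cKO 5 was again lowest. Its differences were -1.18 ± 0.44 in WT (adjusted p = 0.19) and -1.48 ± 0.44 in cKO (adjusted p = 0.062). The other members, Krtap19-3, Krtap19-4, Krtap19-5 and Krtap19-9b, fell in cKO by 2.85, 2.80, 2.01 and 2.43 (adjusted p 0.021, 0.023, 0.041 and 0.022). Near-identical transcripts of a subfamily can hybridise to each other's probes, so members of Krtap19 cannot be taken as independent readings. Transcript and probe sequences were not compared.

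Krtap6, also glycine- and tyrosine-rich, had medians of -2.19 in WT and -2.68 in cKO over 3 genes, and 2 of 3 fell in cKO. Krtap6-5 was at 5.00, 4.08 and 5.91 in WT 1, WT 2 and WT 3 and at 5.07, 3.76 and 6.37 in cKO 2, cKO 5 and cKO 6. In Exp 2 it was at 7.31, 6.71 and 7.53 in WT 4, WT 5 and WT 6 and at 7.60, 7.65 and 8.04 in cKO 1, cKO 3 and cKO 4. No Exp 1 mouse reached an Exp 2 mouse, and WT 5 was lowest in Exp 2. It fell by 2.70 ± 0.61 in cKO (adjusted p = 0.027), and Krtap6-2 fell by 2.68 ± 0.58 (adjusted p = 0.025). The single Krtap21 gene, Krtap21-1, fell by 2.65 ± 0.59 (adjusted p = 0.027). In WT the 3 genes differed by -2.19, -2.29 and -2.04 without passing. The mean of Krtap6, Krtap19 and Krtap21 was each below the mean of all 50 genes in 6 of 6 Exp 1 mice, the only 3 of 24 subfamilies for which this held. Krtap1, Krtap2, Krtap22 and Krtap24 were below it in 5 of 6. In WT the lowest subfamily median was that of the high-sulfur Krtap2, with the single gene Krtap2-4 at -2.21.

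Not every glycine- and tyrosine-rich gene differed as far. Krtap20-2 had -1.16 in WT and -1.47 in cKO, and Krtap8-1 had -1.05 and -1.96, neither passing. Krtap7-1 had -1.31 in WT and -2.42 in cKO, where it lay just above the threshold (adjusted p = 0.05001). Krtap22-2 differed by -1.48 in WT and fell by 2.13 ± 0.55 in cKO (adjusted p = 0.039). Krtap6-1 differed by -1.39 in WT and -1.78 in cKO (adjusted p = 0.057) on its brighter probe.

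The size of the difference also depended on which probe of a gene was read. The dimmer Krtap6-1 probe gave -2.39 in WT and -2.77 in cKO, about 1 log2 unit further than the brighter one. Of the 50 genes, 8 had more than 1 probe, and the dimmest probe gave the difference further below 0 for 4 of 8 and the nearer one for the other 4, in both genotypes. It was further for Krtap6-1, Krtap11-1, Krtap19-5 and Krtap19-9b. Krtap19-9b was at -2.51 and -3.05 on its dimmer probe against -2.05 and -2.43 on the one used, and Krtap11-1 at -0.93 and -1.74 against -0.66 and -1.07. It was nearer to 0 for Krtap4-16 (-1.20 and -0.96 against -1.71 and -1.79), Krtap20-2 (-0.44 and -1.22 against -1.16 and -1.47), Krtap5-5 (-1.16 and -1.49 against -1.57 and -1.88) and Krtap5-2 (-1.41 and -1.48 against -1.44 and -1.63). With the dimmest probe of each gene 21 of 50 were called in cKO. Over the 50 genes the mean level and the difference had a correlation of 0.14 in WT and 0.02 in cKO (a description; the genes share arrays and sequence).

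Among the high-sulfur genes on chromosome 11, Krtap1-4, Krtap1-5, Krtap2-4, Krtap3-1 and Krtap3-2 were called lower in Exp 1 than in Exp 2 among cKO mice. Krtap3-2 had the smallest adjusted p of the family. It was at 4.30, 3.37 and 5.29 in WT 1, WT 2 and WT 3 and at 3.56, 2.89 and 4.67 in cKO 2, cKO 5 and cKO 6, against 6.30, 6.20 and 6.08 in WT 4, WT 5 and WT 6 and 5.94, 6.38 and 6.64 in cKO 1, cKO 3 and cKO 4. The experiments did not overlap, with cKO 5 lowest and WT 3 highest within Exp 1. Krtap3-2 differed by -1.88 ± 0.50 in WT (adjusted p = 0.088) and fell by 2.61 ± 0.50 in cKO, 6.11-fold (adjusted p = 0.019). Krtap1-4 fell by 2.83, Krtap1-5 by 2.46, Krtap3-1 by 2.37 and Krtap2-4 by 2.24 in cKO (adjusted p 0.033, 0.024, 0.032 and 0.040). Their subfamily neighbours Krtap1-3 (-1.13, adjusted p = 0.20) and Krtap3-3 (-1.51, adjusted p = 0.054) did not pass.

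Ultrahigh-sulfur subfamilies were mixed. Of 7 Krtap4 genes, Krtap4-1 and Krtap4-2 fell in cKO, by 1.55 and 2.22 (adjusted p 0.039 and 0.033), and the subfamily median was -1.71 in WT and -1.79 in cKO. Of 3 Krtap9 genes, Krtap9-3 and Krtap9-5 fell in cKO, by 2.18 and 2.51 (adjusted p 0.040 and 0.046), while Krtap9-1 had -1.26 (adjusted p = 0.22). None of the 5 Krtap5 genes passed: their cKO differences ran from -2.04 (Krtap5-1) to -1.38 (Krtap5-4), with a subfamily median of -1.44 in WT and -1.66 in cKO. Krtap17-1 had -1.16 in WT and -1.18 in cKO.

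Krtap4-9 had the smallest difference of the 50 genes in cKO, while in WT several genes differed less, Krtap11-1 least (-0.66). It was at 3.91, 1.19 and 3.21 in WT 1, WT 2 and WT 3 and at 2.82, 1.71 and 3.30 in cKO 2, cKO 5 and cKO 6, against 3.76, 3.00 and 4.43 in WT 4, WT 5 and WT 6 and 2.97, 2.98 and 3.88 in cKO 1, cKO 3 and cKO 4. The groups overlapped in both genotypes, since WT 1 and WT 3 lay within the Exp 2 range and cKO 6 above 2 of the Exp 2 cKO mice. Its differences were -0.96 ± 0.67 in WT and -0.66 ± 0.67 in cKO (adjusted p 0.49 and 0.56).

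The subfamilies with small differences included Krtap10 (-1.23 in WT and -1.13 in cKO), Krtap12-1 (-1.08 and -1.04), Krtap31 (-0.79 and -1.02) and Krtap11-1 (-0.66 and -1.07), none with a called gene. Krtap31-1 was at 4.47, 2.74 and 4.40 in WT 1, WT 2 and WT 3 and at 4.50, 3.20 and 4.99 in cKO 2, cKO 5 and cKO 6, against 4.71, 4.40 and 5.03 in WT 4, WT 5 and WT 6 and 5.02, 5.06 and 5.33 in cKO 1, cKO 3 and cKO 4. WT 2 and cKO 5 stood apart and the other 4 Exp 1 mice lay at or within the Exp 2 range. Krtap31-2, whose window is 90.3% identical, had the same low pair of mice, at 3.53 in WT 2 and 3.17 in cKO 5, against 4.45 to 5.65 in the other Exp 1 mice. The means of Krtap10, Krtap11, Krtap12, Krtap16, Krtap17, Krtap20, Krtap26 and Krtap31 each lay above the mean of all 50 genes in 6 of 6 Exp 1 mice. Krtap16 joins genes on different chromosomes, Krtap16-1 on 11 (-1.06 and -1.22) and Krtap16-3 on 16 (-1.37 and -1.78).

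The remaining single-gene subfamilies lie on chromosome 16. Krtap14 differed by -1.53 in WT and fell by 2.12 ± 0.50 in cKO (adjusted p = 0.031), and Krtap15 differed by -1.34 and fell by 2.77 ± 0.74 (adjusted p = 0.043). Krtap13-1 (-0.90 and -1.51), Krtap24-1 (-1.52 and -2.22) and Krtap26-1 (-1.43 and -1.53) did not pass. The order of the 50 genes was alike in the 2 genotypes, with a correlation of 0.84 between the WT and cKO differences (a description; different mice, the same probes and slides). Windows with TATAAA had a median of -1.57 in WT and -1.96 in cKO (37 genes), and those without -1.48 and -2.45 (8 genes). Windows with a Lef1 and Tcf word had -1.53 and -2.22 (17 genes) and those without -1.52 and -1.83 (28 genes).

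**Figure D2:**
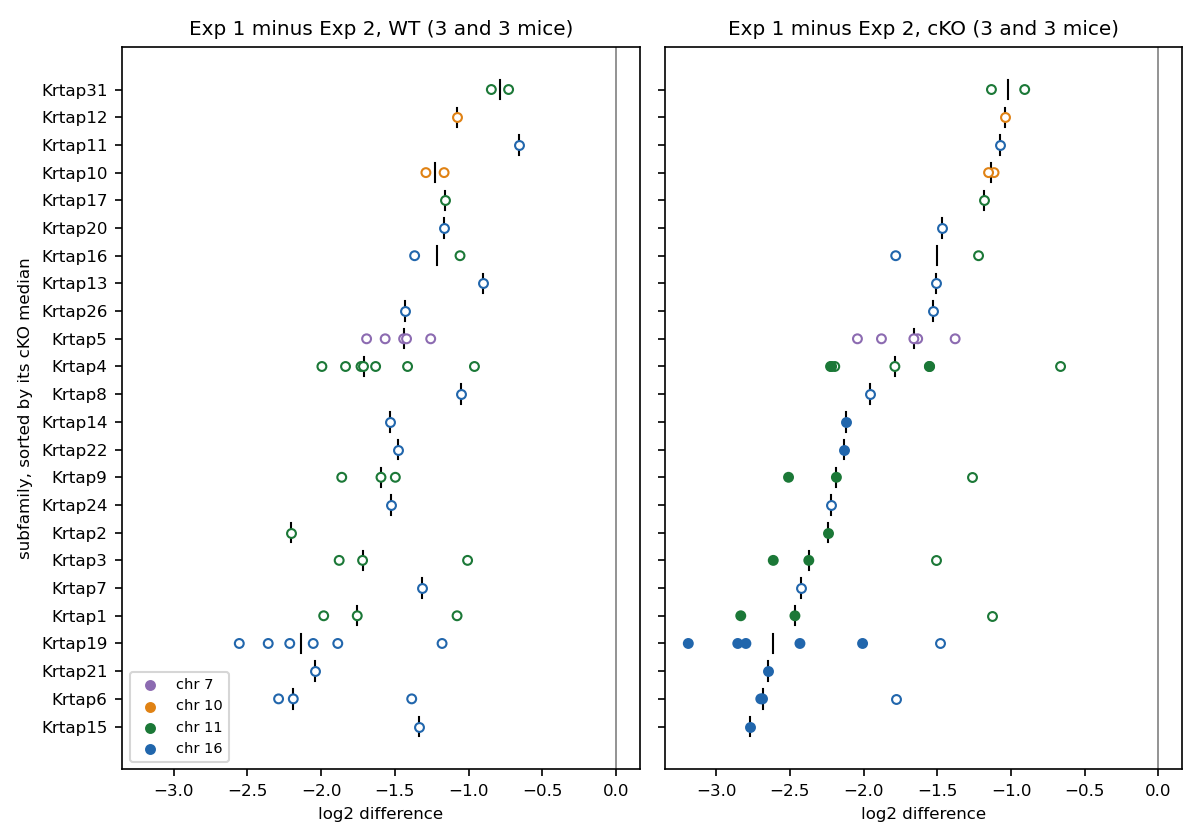
Exp 1 minus Exp 2 difference (log2) of each of the 50 Krtap genes in WT (left) and cKO (right), by subfamily, coloured by chromosome; filled points passed the test (adjusted p under 0.05) and black bars are subfamily medians. All points lie left of 0, none is filled in WT and 20 are filled in cKO, and Krtap31, Krtap12, Krtap11 and Krtap10 lie nearest to 0 in cKO.

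Within Exp 1 the lowest mouse was cKO 5 for 38 genes and WT 2 for 12, and no other mouse was lowest for any gene. How low each of the 2 mice stood varied by gene. WT 2 was lowest for 9 of 21 genes on chromosome 11, 2 of 3 on chromosome 10, 1 of 21 on chromosome 16 and 0 of 5 on chromosome 7. The median of cKO 5 minus WT 2 was -1.14 on chromosome 16 and -0.06 on chromosome 11. The median over all 50 genes was -0.39.

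Genes on chromosome 16 made up the extreme on 1 side. Krtap15 was at 4.09, 3.71 and 5.23 in WT 1, WT 2 and WT 3 and at 3.50, 1.06 and 4.72 in cKO 2, cKO 5 and cKO 6, against 5.83, 5.46 and 5.74 in WT 4, WT 5 and WT 6 and 5.72, 6.00 and 5.86 in cKO 1, cKO 3 and cKO 4. Its value in cKO 5 was 4.71 log2 units under its Exp 2 mean, and without cKO 5 the cKO difference was smaller and did not pass. Krtap7-1 was at 5.79, 5.46 and 6.38 in WT 1, WT 2 and WT 3 and at 5.07, 2.72 and 6.29 in cKO 2, cKO 5 and cKO 6, against 7.33, 7.10 and 7.14 in WT 4, WT 5 and WT 6 and 6.91, 7.22 and 7.21 in cKO 1, cKO 3 and cKO 4. It was lowest in cKO 5, at 2.73 under WT 2.

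Krtap11-1 showed the contrast most plainly. It was at 7.86, 8.13 and 8.30 in WT 1, WT 2 and WT 3 and at 7.94, 6.05 and 8.73 in cKO 2, cKO 5 and cKO 6, against 8.79, 8.85 and 8.62 in WT 4, WT 5 and WT 6 and 8.54, 8.47 and 8.93 in cKO 1, cKO 3 and cKO 4. Only cKO 5 was far from the rest. WT 2, the second lowest mouse of the family mean, was 0.57 under the Exp 2 mean and above WT 1 and cKO 2. On the dimmer probe of the gene WT 2 was second lowest, at 6.24 against 3.43 in cKO 5. Krtap8-1 and Krtap13-1 were also lower in cKO 5 than in WT 2, by 2.50 and 2.17. In both, WT 2 was further under the Exp 2 mean than for Krtap11-1, at 1.47 and 1.06. On the other side, Krtap4-6 was higher in cKO 5 than in WT 2 by 1.39, Krtap4-7 by 0.78 and Krtap9-1 by 0.65; Krtap4-6 was singled out after its values were seen. Krtap4-6 was at -1.15, -4.22 and -1.54 in WT 1, WT 2 and WT 3 and at -2.07, -2.83 and -1.87 in cKO 2, cKO 5 and cKO 6, against -0.13, -0.58 and -0.22 in WT 4, WT 5 and WT 6 and -1.0, 0.37 and 0.53 in cKO 1, cKO 3 and cKO 4. Here WT 2 alone was far below the rest. The Krtap4-6 probe was the dimmest of those used, at a mean level of -1.23, and how close its WT 2 value lay to background was not tested.

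**Figure D3:**
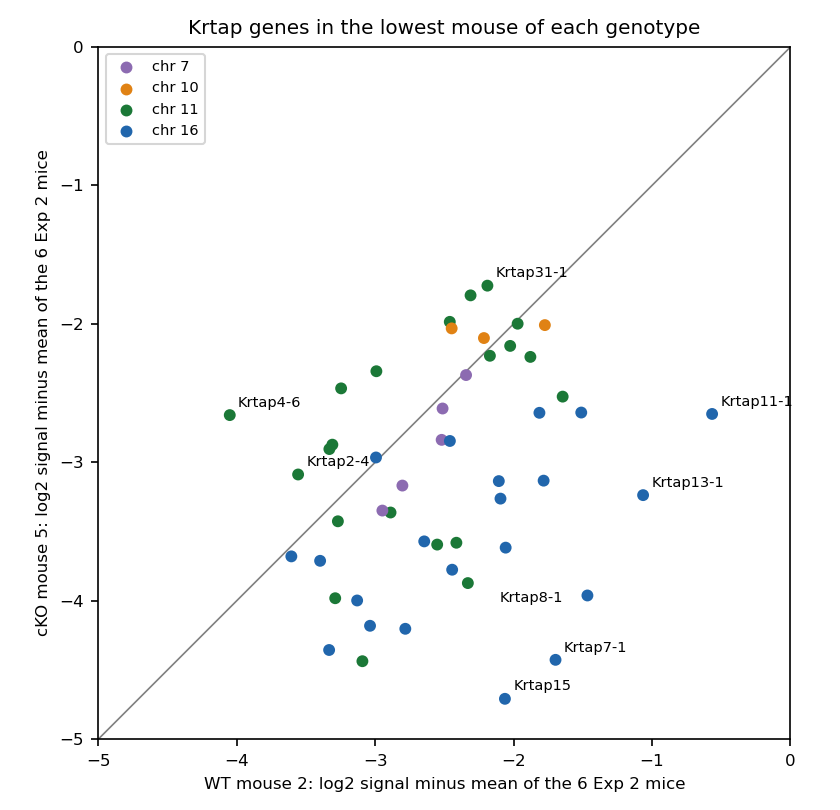
Level of each of the 50 Krtap genes in WT mouse 2 (x axis) and cKO mouse 5 (y axis), as log2 signal minus the gene's mean over the 6 Exp 2 mice, coloured by chromosome; the line marks equal values. Chromosome 16 genes lie mostly below the line, Krtap7-1, Krtap8-1, Krtap11-1, Krtap13-1 and Krtap15 farthest, and 12 genes lie above it, Krtap4-6 farthest.

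Other genes of the hair follicle were read in the same mice, with Exp 1 set against Exp 2 within each genotype. The 13 hair shaft keratins had a median difference of -1.10 in WT and -1.70 in cKO, all 13 negative in both, and 1 of 13, Krt84, a keratin of the shaft cuticle, fell in cKO, by 1.90 ± 0.37 (adjusted p = 0.020). Of 14 other hair shaft proteins 2 fell in cKO, Crisp1 by 3.40 and Dsc2, a desmosomal cadherin, by 2.07, and Lce1a1, a cornified envelope protein, rose by 1.49 (adjusted p 0.019, 0.012 and 0.050). The list medians were -0.55 in WT and -1.07 in cKO. The 14 inner root sheath genes (-0.23 and -0.61) and 20 hair matrix and shaft regulators (-0.27 and -0.57) held no called gene in either genotype. Of 19 mitosis genes Kif11, a spindle motor, and Tpx2, a spindle assembly factor, fell in cKO by 0.74 and 0.65 (2 of 19, against the 4.6% of all genes called lower), with medians of 0.04 in WT and -0.39 in cKO.

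WT 2 and cKO 5, both low in Krtap genes, differed in the rest of the follicle. In WT 2 the Krtap mean was -2.49, hair shaft keratins -1.46, inner root sheath -0.40, matrix regulators -0.06, mitosis 0.32 and melanocyte genes 0.20. In cKO 5 the Krtap mean was -3.09, hair shaft keratins -3.39, inner root sheath -1.49, matrix regulators -1.65, mitosis -0.55 and melanocyte genes -2.71. The Krtap genes thus stood lower than the hair shaft keratins in WT 2 and not in cKO 5. In WT 1, WT 3, cKO 2 and cKO 6 the hair shaft keratins were at -1.14, -0.61, -1.23 and -0.59, each less far below Exp 2 than the Krtap mean.

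Markers of epidermis, sebaceous gland and fat stood furthest from Exp 2 in cKO 5. In WT 2, also low in Krtap genes, they were at 0.25, 0.24 and -0.85, and WT 1 was further from Exp 2 in each. The mean of the macrophage genes was lowest in cKO 6, at -1.60. The mean of 12 interfollicular epidermis genes was 1.42 in cKO 5 and 0.19 to 0.72 in the other Exp 1 mice, and 7 of 12 rose in the cKO mice of Exp 1, where 5.38% of all genes were called higher. The mean of the 10 sebaceous gland genes reached 1.37 in cKO 5 against 0.24 to 0.60, and Fa2h and Scd3, both lipid enzymes, rose in cKO by 1.59 and 1.04. The mean of the 10 adipocyte genes was -2.96 in cKO 5 and -1.15 to -0.43 in the other Exp 1 mice, with 0 called. Among cKO mice 4.6% of all genes were called lower in Exp 1, and 6 of 7 macrophage genes fell (medians -0.89 in WT and -1.36 in cKO). The mean of the 10 follicle stem cell and bulge genes lay between -0.06 and 0.27 in all 6 Exp 1 mice, and Krt15 and Sox9 rose in cKO by 0.85 and 0.43. Of 8 fibroblast genes 1, Pdgfra, fell in cKO, by 0.86, against the same 4.6% of all genes. Of 11 dermal papilla and 10 melanocyte genes 0 were called. These genes were named with their values known, all tested genes of the lists were above background on at least 3 arrays, and the part of these cell types in the Krtap values was not tested. The 75th percentile of the signal was lowest in cKO 5 (364), cKO 6 (396) and WT 2 (398), and cKO 6 had the highest Krtap mean of Exp 1.

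**Figure D4:**
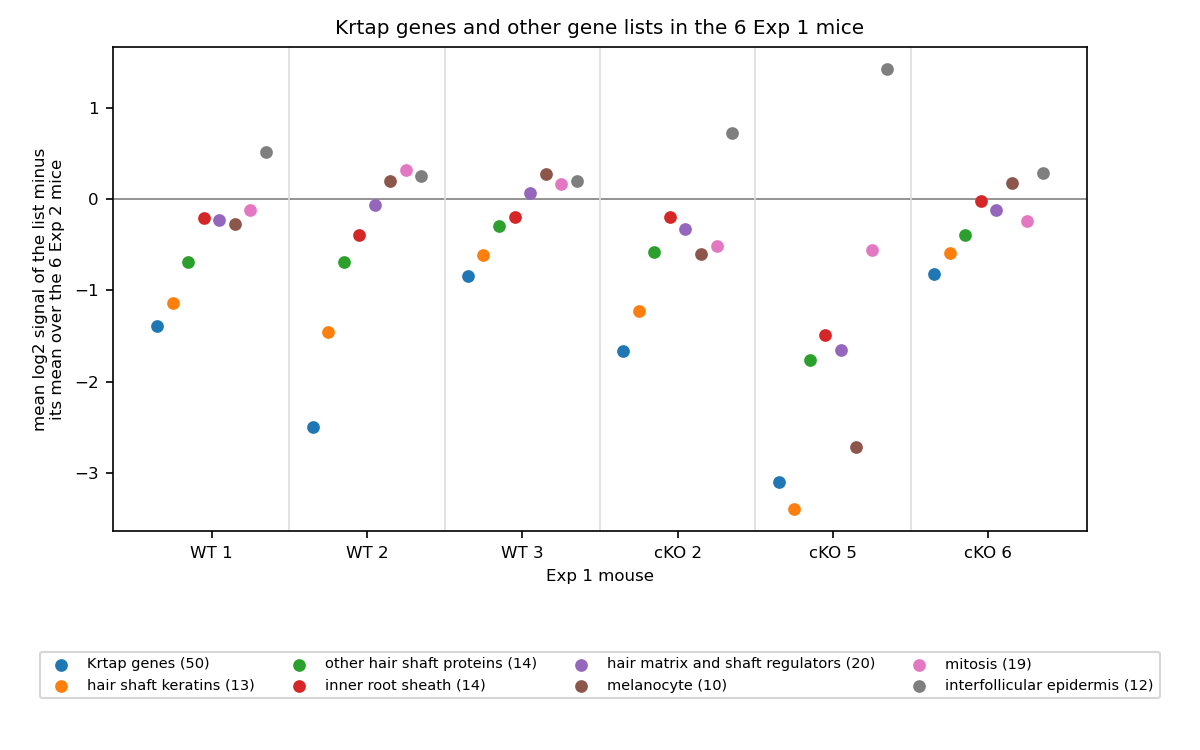
Mean log2 signal of the 50 Krtap genes and of 7 other gene lists in each of the 6 Exp 1 mice, minus the list's mean over the 6 Exp 2 mice (gene number in brackets). Of the lists drawn, the Krtap point is the lowest in 5 mice, hair shaft keratins are lowest in cKO 5 at -3.39, and melanocyte genes are far below 0 only in cKO 5. Among lists not drawn, skeletal muscle genes were lower than the Krtap mean in each Exp 1 mouse, and macrophage genes in cKO 6.

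The second comparison, cKO against WT, asked whether loss of Sox4 changed the Krtap genes. No Krtap gene passed the test. Averaged over both experiments 0 of 50 were called and 0 had an unadjusted p under 0.05, against 0.42% and 12.2% of all genes. In Exp 1 both counts were 0 of 50 (0.117% and 11.3% of all genes), in Exp 2 both were 0 (0.0618% and 4.67%), and for the interaction, the Exp 1 genotype difference minus that of Exp 2, both were 0 (0.00618% and 3.16%). With limma's trended and robust variance the counts of called genes were also 0. The medians of the 50 genes were -0.12 averaged, -0.24 in Exp 1, 0.05 in Exp 2 and -0.39 for the interaction, against -0.04, -0.02, -0.06 and 0.03 over all genes. The difference was negative for 34 of 50 genes averaged, 38 in Exp 1 and 12 in Exp 2.

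The Exp 1 median turned with single mice. It was 0.33 without cKO 5, 0.14 without WT 3, -0.68 without WT 2 and -0.76 without cKO 6, and the averaged median was 0.21 without cKO 5, 0.09 without WT 3, -0.32 without WT 2 and -0.37 without cKO 6. With slide as a block the Exp 1 median was -0.24, within slide 1 (cKO 2 and cKO 6 against WT 2 and WT 3) 0.46 with 0 called, and within slide 2 -1.61. Slide 2 held 1 Exp 1 mouse of each genotype (cKO 5 and WT 1), so its 38 called genes compare single mice, with the spread taken from WT 4 and WT 6, and are no test of genotype. The medians of the 2 slides had opposite signs. In no gene of the 50 did the 3 cKO mice of Exp 1 all lie below the 3 WT mice, which was so for 7.20% of all genes.

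The largest Exp 1 genotype differences were those of genes far lower in cKO 5 than in WT 2, and both mice enter that difference. Their standard errors came from all 4 groups and so also carry the narrow spread of Exp 2. For Krtap15 the SD was 0.79 in WT and 1.86 in cKO of Exp 1, against 0.19 and 0.14 in Exp 2. Krtap15 had -1.25 ± 0.74 (adjusted p = 0.54), Krtap7-1 -1.18 ± 0.68 (adjusted p = 0.54), Krtap8-1 -0.94 ± 0.66 (adjusted p = 0.60) and Krtap13-1 -0.82 ± 0.56 (adjusted p = 0.59). In each of them cKO 2 and cKO 6 did not stand apart from the WT mice as cKO 5 did. Krtap31-1 was at the other end, at 0.36 ± 0.51 in Exp 1 and 0.39 ± 0.36 averaged (adjusted p 0.80 and 0.68). By chromosome the Exp 1 medians were -0.41 on 16, -0.13 on 11, -0.15 on 7 and 0.18 on 10. By subfamily they ran from -0.61 (Krtap3), -0.53 (Krtap1) and -0.47 (Krtap9) through -0.32 (Krtap19) and -0.15 (Krtap5) to 0.05 (Krtap4) and 0.07 (Krtap6) among those of at least 3 genes.

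In Exp 2 the Krtap differences ran from -0.46 ± 0.67 (Krtap4-9) to 0.58 ± 0.61 (Krtap6-5), and all adjusted p were at least 0.98. The standard errors came from all 4 groups and so carry the wide spread of Exp 1. The 3 cKO mice lay above the 3 WT mice for 3 of 50 genes (2.71% of all genes), Krtap4-2, Krtap6-2 and Krtap6-5. Krtap6-5, given above by mouse, was at 6.71 to 7.53 in WT and 7.60 to 8.04 in cKO. Krtap6-2 was at 7.31, 6.97 and 7.58 in WT 4, WT 5 and WT 6 and at 7.69, 7.66 and 8.08 in cKO 1, cKO 3 and cKO 4, a difference of 0.52 ± 0.58 (adjusted p = 0.98). The groups touched within 0.1 log2 units in both genes. cKO 4 was the highest of the 12 mice for 30 of 50 genes.

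**Figure D5:**
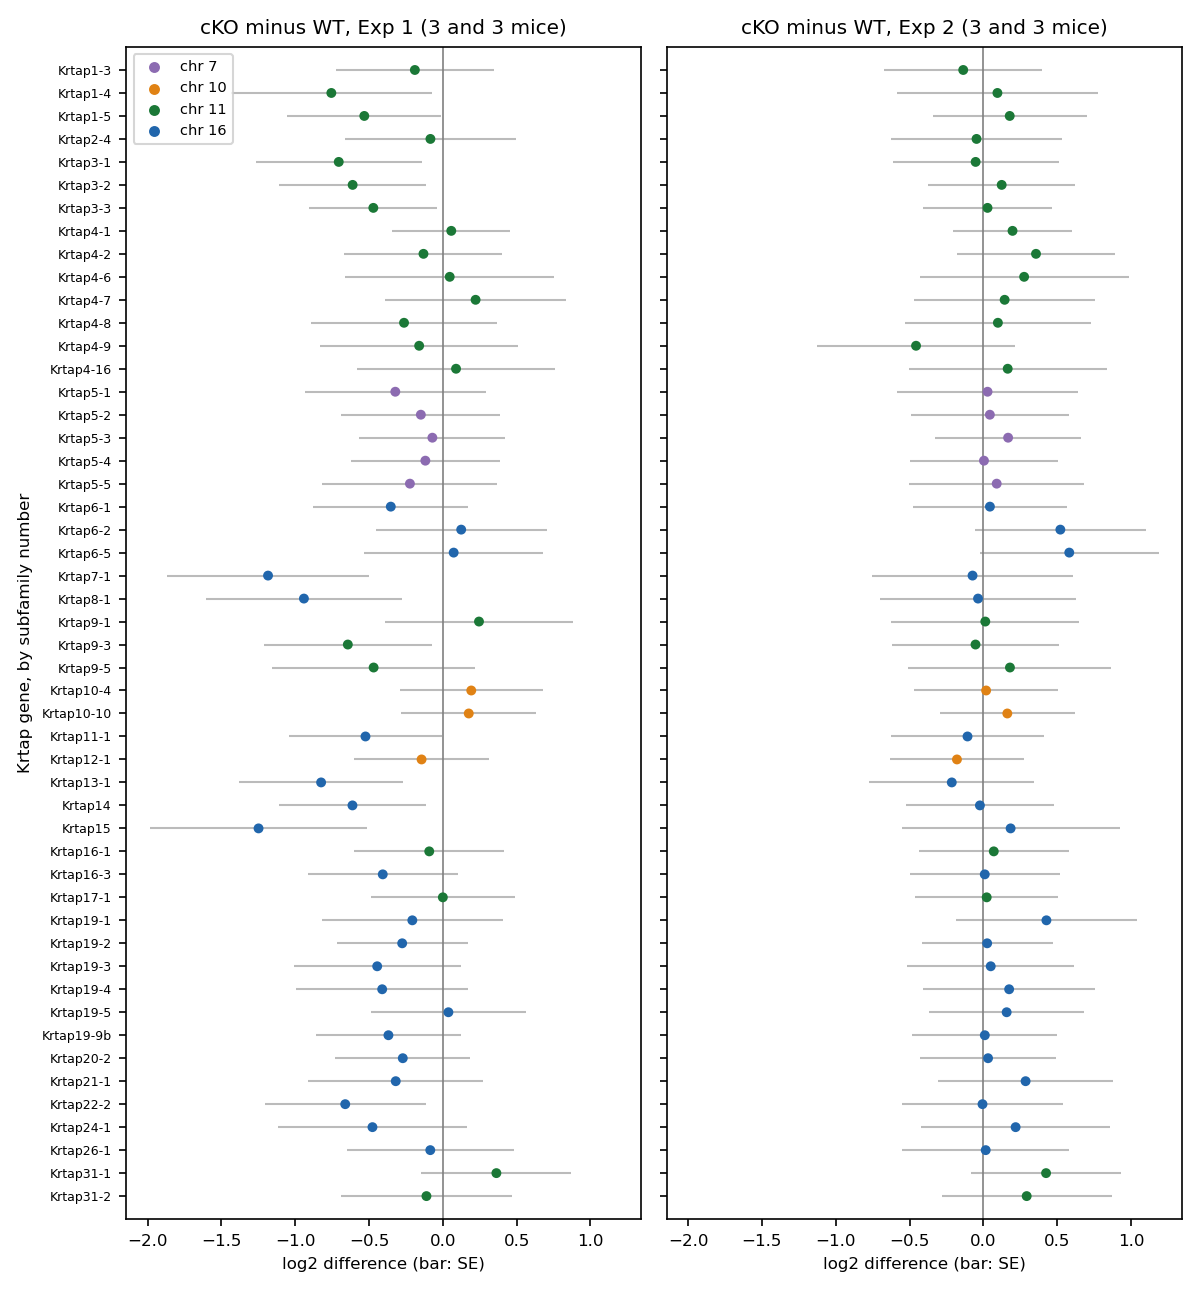
cKO minus WT difference (log2) of each of the 50 Krtap genes in Exp 1 (left) and Exp 2 (right), with the SE from limma as bars, coloured by chromosome. Most Exp 1 points lie left of 0, farthest for Krtap15 and Krtap7-1, and Exp 2 points lie between -0.46 and 0.58.

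Within an experiment the Krtap genes moved together across mice. Each gene was set against the mean of the other 49 genes over the 6 mice of Exp 1, and the median correlation was 0.95, with the lowest, 0.71, for Krtap4-6. In Exp 2 the median was 0.69, and 1 gene, Krtap24-1, was negative at -0.24. These correlations are a description over 6 mice that share slides and scaling. Krtap24-1 was at 1.95, 1.98 and 1.00 in WT 4, WT 5 and WT 6 and at 1.94, 1.93 and 1.72 in cKO 1, cKO 3 and cKO 4, so WT 6 alone was low in Exp 2. In Exp 1 it was at 0.26, -0.69 and 0.80 in WT 1, WT 2 and WT 3 and at 0.08, -2.02 and 0.87 in cKO 2, cKO 5 and cKO 6, the same order of mice as in the family mean.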

How the data were processed

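Total RNA of plucked mouse skin was hybridised with Cy3 label, 1 array per mouse, 12 arrays in all, per the labels' protocols. The deposited scanner files are output of Agilent's Feature Extraction software (version 11.5.1.1 per the file headers) and hold the intensity of each spot as a processed signal that the software had background-corrected. The authors also deposited a table of log2 values, made with limma per the submitters' processing notes (version not given in the sources used here); it was used as an alternative only. Its column medians were 6.76 to 6.77, and its centring and normalization are not stated.

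The main values are log2 processed signals minus each array's 75th percentile, with outlier-flagged spots left out. Of 55681 probes, 27509 had a gene symbol through their RefSeq accession. Genes were kept if well above background on at least 3 arrays. limma 3.58.1 (R 4.3.3) fitted 4 group means over 16181 genes (8 residual and 2.3 prior degrees of freedom), with Benjamini-Hochberg adjustment and a threshold of 0.05, and the fitting step was tested on simulated data. Array number, not depth, limits the precision. Nothing in the labels pairs mice beyond their numbers: of 6 same-numbered WT and cKO pairs only 2 shared an experiment, and 0 had a correlation of deviations over 0.1 (range -0.26 to 0.07).

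Members and gene lists were chosen with earlier results of these data known. By rule the text names the called genes with the 10 largest differences each way, the 5 smallest p each way per contrast, extremes of subfamilies with at least 3 genes and all genes of smaller ones; this took in 44 of 50 Krtap genes, and the others (Krtap4-6, Krtap4-8, Krtap4-16, Krtap5-4, Krtap5-5 and Krtap19-5) were named with their values known. The normexp alternative used the median signal and local background with an offset of 50, since the mean signal was not used here. Protein sequences were not used here. Other alternatives were scaling, filters, probe choice, slide, array-name tag, array weights and leaving out each mouse.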

Additional observations from a re-analysis of the deposited data

How the results depend on the processing

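The 44 Krtap genes named by rule kept a negative Exp 1 minus Exp 2 difference in WT under all 31 alternatives run, and in cKO 19 of 1364 gene-by-alternative values turned positive. The median of the 50 genes stayed negative in both genotypes under all of them. The count of called genes in cKO (20) did not hold: it was 0 in the authors' value table (median -0.23), 11 in that table without its column of cKO mouse 1, 13 with no filter on dim probes, 0 with slide as a block, 0 within slide 1 (median -0.98), 50 within slide 2 (median -3.35), 1 with a term for the P1 or P2 tag of the array names, and 3 with only the 2 groups fitted. In WT the count (0) was 2 with median scaling, 26 within slide 2 and 9 with array weights. For cKO against WT within slide 2 the counts were 10 averaged, 38 in Exp 1 and 19 for the interaction, with medians of -1.61 in Exp 1, 0.25 in Exp 2 and -1.89 for the interaction, and Krtap6-5 (-1.24), Krtap10-10 (-1.36) and Krtap17-1 (-1.46) turned from positive to negative in Exp 1. Slide 2 held single mice in all but the WT Exp 2 group, so its calls compare those mice and test no group difference. The interaction median was 0.43 within slide 1. In the authors' table the medians were -0.84 averaged, -1.46 in Exp 2 and 1.11 for the interaction. The Exp 2 median was 0.26 without that table's column of cKO mouse 1 and 0.55 with the array-name tag. The cause was not tested. Mouse numbers do not pair the samples; with mouse number as a replicate block 0 genes were called in cKO, and the medians were -0.40 in Exp 2 and 0.41 for the interaction.

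Leaving out each mouse in turn gave 0 called genes in all 12 fits for each genotype contrast and the interaction. The medians ranged from -0.37 to 0.21 averaged, -0.76 to 0.33 in Exp 1, -0.05 to 0.15 in Exp 2 and -0.91 to 0.25 for the interaction. For Exp 1 minus Exp 2 they ranged from -1.85 to -1.02 in WT, with 0 to 15 called, and from -2.40 to -1.25 in cKO, with 0 to 41 called. Where a mouse was left out, the remaining pair was assumed to vary like the other groups. All 50 genes were above background on every array, so signal over background limits none of them; 3 mice a group and the Exp 1 spread set the limit.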

Other observations

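In the authors' value table the column of cKO mouse 1 did not follow its scanner file. Over 26644 probes the correlation of deviations from the mean over arrays was 0.26 with its own array and 0.33 with that of cKO mouse 5, its best match, while the other 11 columns followed their own arrays at 0.89 to 0.97. The scanner files were used for all values of the report.

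Among 4 probes of Krtap20-2 the dimmest, above background on 11 arrays, read cKO minus WT as -1.47 averaged (adjusted p = 0.094), while the other 3 read -0.12 to -0.24. For Krtap5-5, 4 probes read Exp 1 minus Exp 2 in cKO as -1.49 (adjusted p = 0.019) on the dimmest and -1.84 to -1.95 (adjusted p 0.056 to 0.076) on the others. These probes were singled out after their values were seen.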
